A study of Homo sapiens with 18 samples.

Results

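The 9 genes described here encode the human DNA topoisomerases TOP2A, TOP2B, TOP1, TOP1MT, TOP3A and TOP3B, and the enzymes TDP1, TDP2 and SPRTN, which remove topoisomerases and other proteins that have become covalently attached to DNA. They were chosen by symbol from what their products do, and each was matched to 1 Ensembl identifier among the 58051 counted in every library. All 9 passed the filter on low counts that left 14186 genes to test. TOP2A and TOP2B encode the 2 forms of topoisomerase II, the target of etoposide.

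Topoisomerases relieve the twisting of DNA by cutting and resealing it, and during the cut a tyrosine of the enzyme is bonded to the DNA end. Type II enzymes cut both strands, while the type I enzymes TOP1, TOP1MT, TOP3A and TOP3B cut 1 strand. Etoposide stops topoisomerase II from resealing, so that the enzyme stays attached to broken DNA. TDP2 hydrolyses the bond between topoisomerase II and the 5′ end, TDP1 acts mainly on topoisomerase I at the 3′ end, and SPRTN is a DNA-dependent protease that degrades the attached protein. TOP2A is made mainly in proliferating cells and is needed to separate chromosomes at mitosis, whereas TOP2B is made in dividing and non-dividing cells alike.

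The cells were hTERT RPE-1, a human retinal pigment epithelial line immortalised with telomerase reverse transcriptase, labelled as being in G0/G1. All 6 groups were grown in 10% serum and then starved for 48 h in 0.1% serum. The etoposide arm received 50 µM etoposide for 30 min before triptolide and was sampled at time points 0, 20 and 40 (groups etoposide 0, etoposide 20 and etoposide 40), and the DMSO arm, named so in the sample titles, was sampled at the same time points (groups DMSO 0, DMSO 20 and DMSO 40). The protocol gives 10 µM triptolide, an inhibitor of transcription by RNA polymerase II, to both arms. The labels give the time points no unit and do not say whether triptolide was already present at 0. Whether DMSO 0 had received triptolide is therefore not known. From its titles, the DMSO arm was taken to have had 0 µM etoposide. Each group had 3 libraries that the labels call independent replicates, numbered 1 to 3, and the study asked how etoposide changes RNA levels and their stability. The labels do not say whether these came from separate cultures, so p-values measure the spread between these libraries, which may be technical.

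Total counts per library lay between 7957691 and 11580219, and 17854 to 20410 genes had a count. Of the markers of the labelled cell type, KRT8 (444 to 985 CPM) and MITF (23.8 to 69.4 CPM) were present, while TTR had 0 counts in all libraries, TYR had at most 1 count and RPE65 at most 7 counts. Of 6 mesenchymal markers, VIM (9390 to 12242 CPM), THY1 (387 to 565 CPM), PDGFRB (71.0 to 141 CPM) and COL1A1 (15.6 to 73.2 CPM) were present, while COL1A2 had 0 to 4 counts and COL3A1 0 to 11 counts. BEST1, another gene of the pigment epithelium, had 21473 counts in DMSO 0 replicate 2, against a median of 56 over the 18 libraries. CDH1, KRT5 and HBB had 0 counts throughout. Expression is given as CPM, counts scaled to a library total of 1e+06 after TMM adjustment, so a value is a share of the library and a loss common to most RNAs after triptolide would not appear in it. In bulk RNA, fewer cells of a type and less RNA per cell cannot be told apart.

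None of the 9 genes was called in any comparison, at a Benjamini-Hochberg adjusted p below 0.05 in the quasi-likelihood test of edgeR. Between the arms the share of all 14186 genes called was also 0% at 0, 20 and 40 and over the time points together. At an unadjusted p below 0.05 in edgeR, 378 genes passed at 0, 108 at 20 and 139 at 40. Each is a share of the 14186 genes below 0.05, the share that such a threshold passes without any difference. At the adjusted threshold DESeq2 called 3, 0 and 1. At 40 against 0, 0.204% of all genes were called in the etoposide arm (29 genes, all lower) and 0.423% in the DMSO arm (60 genes, all lower), none of them among the 9. With the replicate numbers as a block these counts were 143 and 173, again without any of the 9. A test for any difference among the 6 groups called 0.331% of genes (47, or 185 with the block), and 0 of the 9. The interactions, which subtract the DMSO arm's change over time from that of the etoposide arm, called 0% of genes at 20 and at 40, as did 20 against 0 in each arm. Against backgrounds this low a count of 0 among 9 genes says little, and the values that follow give their levels, their spread and the limits set by the intervals.

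TOP2A, the gene of topoisomerase II alpha (ENSG00000131747), lies on chromosome 17 at chr17:40388516-40417950 on the minus strand of GRCh38. It had 373, 379 and 421 CPM in etoposide 0 and 412, 357 and 439 CPM in DMSO 0. At 20 it had 362, 511 and 366 CPM with etoposide and 471, 331 and 349 CPM with DMSO, and at 40 it had 385, 387 and 458 CPM with etoposide and 410, 426 and 498 CPM with DMSO. The arms overlapped at every time point, and the highest library of all was etoposide 20 replicate 2. Over the 3 time points the log2 difference between etoposide and DMSO was -0.02 (95% interval -0.21 to 0.18). At 20 alone it was 0.11 (-0.24 to 0.45), and its sign rested on 1 library, since without etoposide 20 replicate 2 it was -0.0761. At 40 the difference was -0.12 (-0.46 to 0.23), with etoposide lower in 3 of 3 same-numbered pairs and an unadjusted edgeR p of 0.479. Of all tested genes, 25.6% had the same sign in all 3 pairs at 40.

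TOP2B, the gene of topoisomerase II beta (ENSG00000077097), lies at chr3:25597905-25664907 on the minus strand. It had 146, 129 and 174 CPM in etoposide 0 and 149, 123 and 188 CPM in DMSO 0. At 20 the values were 141, 179 and 150 CPM with etoposide and 161, 117 and 163 CPM with DMSO, and at 40 they were 149, 147 and 186 CPM with etoposide and 166, 146 and 188 CPM with DMSO. Again the arms overlapped throughout, and libraries of replicate number 3 were the highest in 5 of the 6 groups. The log2 difference over the 3 time points was 0.00 (95% interval -0.22 to 0.22), or 0.01 (-0.14 to 0.16) with the replicate numbers as a block. At 40 against 0 TOP2B differed by 0.10 (-0.28 to 0.49) in the etoposide arm and 0.12 (-0.26 to 0.51) in the DMSO arm, and TOP2A by 0.07 (-0.27 to 0.41) and 0.14 (-0.20 to 0.49). Neither topoisomerase II gene was called at 40, the time point at which the short-lived MYC mRNA had fallen by 1.44 on the log2 scale with etoposide and by 2.01 with DMSO (adjusted p = 0.0215 and 0.000696 in edgeR).

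**Figure D1:**
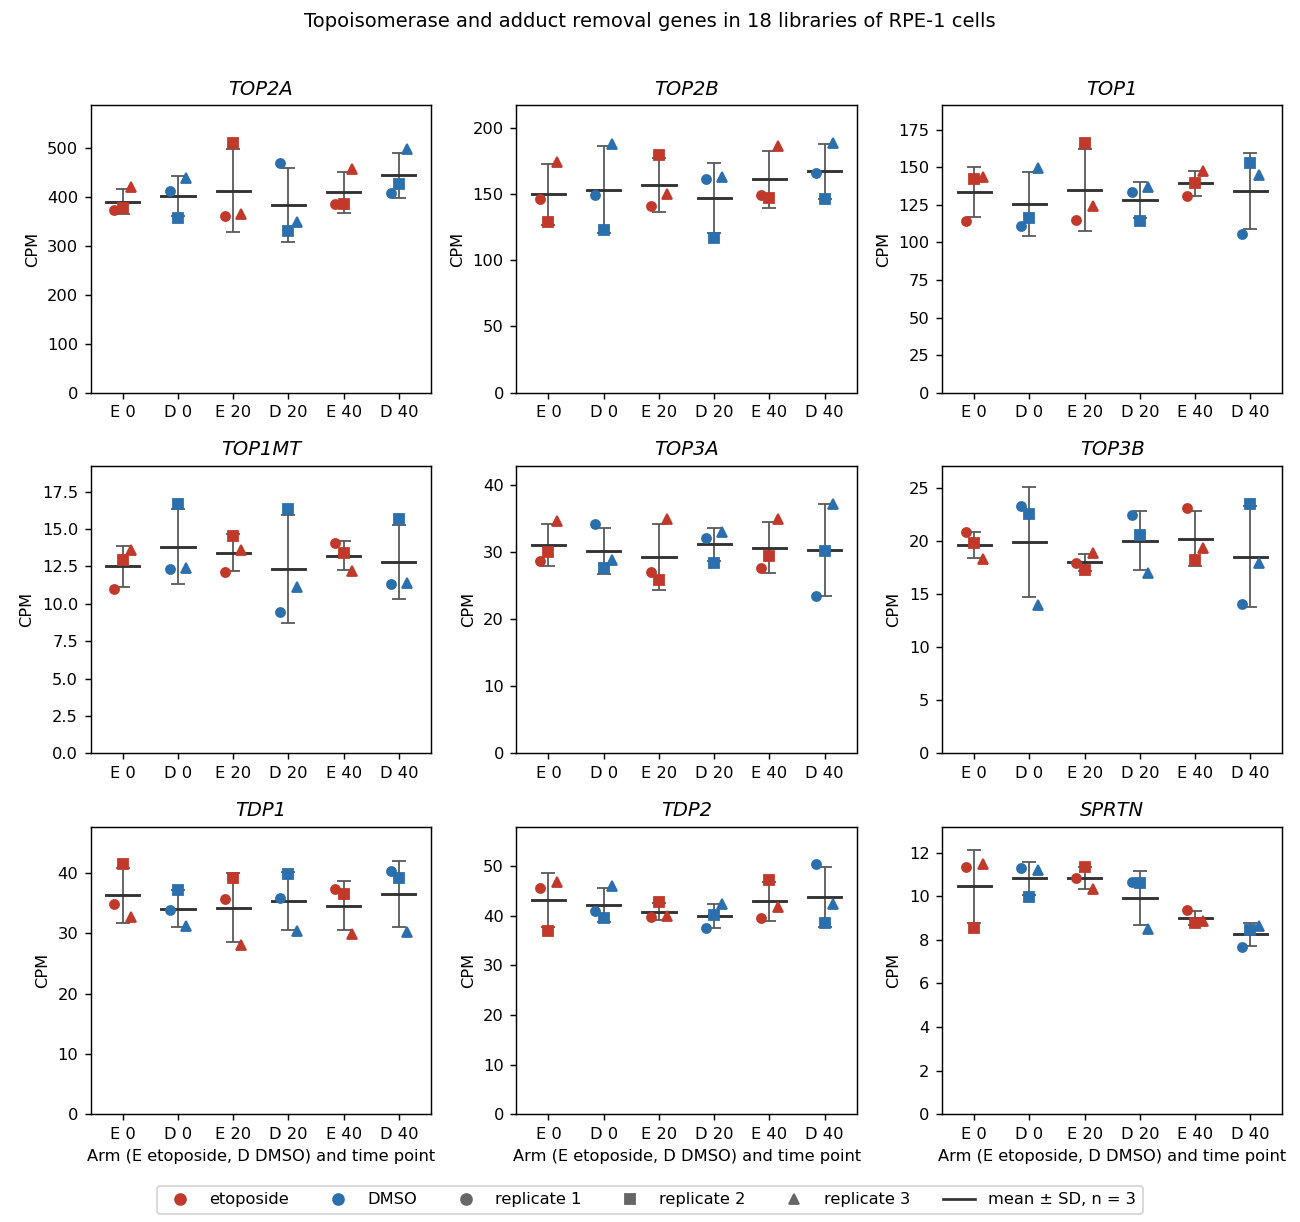
Levels of the 9 genes in CPM in each library (vertical axis, starting at 0), by arm and time point (horizontal axis, E for etoposide and D for DMSO). Circles, squares and triangles are replicates 1, 2 and 3, and bars are the mean ± SD of 3 libraries. The arms overlap for every gene at 0 and 20, and at 40 for all but SPRTN, whose 3 etoposide libraries (8.77 to 9.38 CPM) lie above the 3 DMSO libraries (7.66 to 8.65 CPM).

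The promoters of TOP2A and TOP2B, the genes of the etoposide target, are shown with a motif that both hold. Any part of this motif in how these genes varied across libraries was not tested. The stretches come from RefSeq on GRCh38.p14, run 5′ to 3′ on the minus strand, chr17:40417951-40418146 for TOP2A and chr3:25664908-25665157 for TOP2B, and end at the base before the transcription start of the gene annotation (GENCODE 29). Capitals mark the reverse complement of the CCAAT box, a binding site of the factor NF-Y in many cell-cycle promoters.
TOP2A: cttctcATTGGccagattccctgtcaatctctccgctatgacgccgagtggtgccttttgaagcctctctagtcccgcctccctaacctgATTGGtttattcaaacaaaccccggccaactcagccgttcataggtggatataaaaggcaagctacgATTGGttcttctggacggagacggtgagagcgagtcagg
TOP2B: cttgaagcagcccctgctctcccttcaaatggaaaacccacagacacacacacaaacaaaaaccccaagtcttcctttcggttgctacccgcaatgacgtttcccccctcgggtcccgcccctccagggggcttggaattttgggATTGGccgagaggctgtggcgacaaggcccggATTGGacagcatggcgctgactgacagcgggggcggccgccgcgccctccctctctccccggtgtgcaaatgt
The letters CCAAT were searched on both strands of the 250 bases before the RefSeq start. TOP2A held 4 matches, at 244, 160, 93 and 53 bases upstream, the last of them in the 54 bases between the RefSeq and GENCODE starts that are not printed. TOP2B held 2, at 105 and 73 bases upstream. In all, 32.0% of 35116 promoter windows held at least 1 match. The promoter of TOP1MT was left out of the search. Among the 8 of the 9 genes whose promoters were searched, TOP2A and TOP2B were the ones with a match. The CHR element TTTGAA, known from promoters of mitotic genes, occurred in TOP2A (2 matches), TOP2B, TDP1 and SPRTN (1 each) and in 13.3% of all windows. The GC box GGGCGG was in 42.6% of all windows and in TOP2A, TOP2B, TOP1, TOP3A and TDP2. A match describes letters in the window and no binding was measured.

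The ratio of TOP2A to TOP2B, taken per kb of exon, was 2.44 in the etoposide arm and 2.48 in the DMSO arm (geometric means of 9 libraries each). On the log2 scale the means were 1.29 ± 0.0971 with etoposide and 1.31 ± 0.160 with DMSO (SD, n = 9 libraries each), a difference of -0.02 in a two-sided exact permutation test within time points (p = 0.716, 8000 arrangements). With the replicate numbers as a block, the exact test of sign flips over 9 pairs gave p = 0.547, with 5 pairs higher and 4 lower with etoposide. The ratio of single libraries lay between 2.01 in DMSO 20 replicate 3 and 2.77 in etoposide 0 replicate 2. Topoisomerase II alpha mRNA thus stood above topoisomerase II beta mRNA in 18 of 18 libraries, by an amount that did not differ detectably between the arms.

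Per kb of exon, the 9 genes spanned a wide range of levels. TOP2A was highest with 63.3 ± 8.04 CPM per kb (mean ± SD over the 18 libraries), more than 95.8% of the 14153 tested genes with a length. TOP1, the nuclear type IB enzyme that removes supercoils ahead of RNA polymerase, followed with 35.5 ± 4.60 CPM per kb, and TOP2B had 25.7 ± 3.59 CPM per kb. The ranges of TOP1 (28.2 to 44.5) and TOP2B (19.3 to 31.2) overlapped, while all values of TOP2A were above both. TDP2 had 13.7 ± 1.21 CPM per kb, all of its libraries lying between those of TOP2B and those of TDP1. With the longest transcript as the length, TDP2 and TOP2B overlapped. TDP2 then had 23.8 CPM per kb in DMSO 40 replicate 1, and TOP2B 21.6 in DMSO 20 replicate 2.

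TDP1 (5.66 ± 0.653 CPM per kb) and TOP3A (4.70 ± 0.573) lay close to the median of all genes, 4.82 CPM per kb, and their ranges overlapped. TOP3B (2.92 ± 0.437), TOP1MT (2.02 ± 0.302) and SPRTN (1.67 ± 0.215) were below that median in all 18 libraries, with ranges that overlapped between neighbours. The order of these low genes depends on the length used: with the longest transcript in place of all exons, TOP1MT had 6.41 and TOP3B 4.65 CPM per kb. The length of TOP1MT is 6441 bp over all exons and 2029 bp in its longest transcript.

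**Figure D2:**
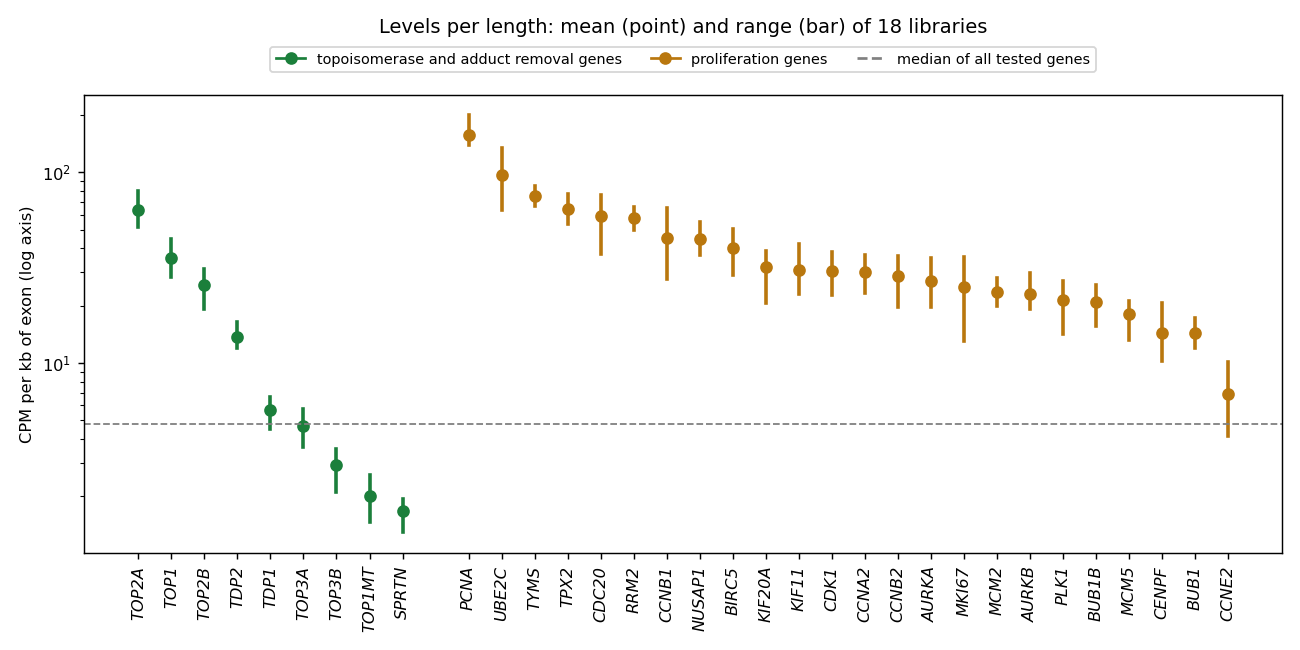
Levels per length (CPM per kb of exon, log axis) of the 9 genes and of 24 proliferation genes, as the mean (point) and range (bar) of the 18 libraries, with the median of all tested genes, 4.82, as a dashed line. TOP2A stands among the proliferation genes, and TOP3B, TOP1MT and SPRTN lie below the line.

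Since TOP2A is itself a proliferation gene, 24 such genes were read in the same libraries. In cells labelled G0/G1 their mean levels ran from 6.91 to 157 CPM per kb, with a median of 30.3, and 24 of 24 were above the median of all genes. By mean level per kb of exon, PCNA, UBE2C and TYMS stood above TOP2A, and TPX2 (64.0 ± 6.04 CPM per kb) was level with it within the spread of the libraries. By the longest transcript, TPX2 had 63.96 and RRM2 83.4 CPM per kb against 70.8 for TOP2A, so the order near TOP2A also depends on the length used. MKI67, the antigen of cycling cells, had 166 to 458 CPM. None of the 24 was called between the arms, where 23 of 24 had a lower estimate with etoposide at 0 (median log2 difference -0.16, against -0.01 and 51.4% of genes lower over all tested genes). At 20 the median was 0.04 with 7 of 24 lower, against 49.3% of all tested genes. At 40 it was -0.11 with 21 of 24 lower, against 51.1%. The list was not tested as a set, and its genes were read in the same 3 libraries per group, so their signs are not independent readings. The smallest unadjusted p at 0 was that of TYMS, the enzyme that makes thymidylate (log2 difference -0.22, not called). TOP2A, with -0.04, 0.11 and -0.12 at 0, 20 and 40, had the sign of the list's median at each time point. Its sign turned at 0 without DMSO 0 replicate 3 (0.026) and at 20 without etoposide 20 replicate 2 (-0.076). At 40 it stayed below 0 over the left-out libraries (-0.204 to -0.027). The part of these genes in the values of TOP2A was not tested.

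By likeness of log2 CPM over the 18 libraries, among 10813 genes with a mean of at least 5 CPM, the genes nearest to TOP2A were ANLN (Pearson r = 0.906), KIF23 (0.895), WRN (0.868), ZEB1 (0.867) and PPIG (0.854). With each replicate number's mean subtracted they were IPO7 (0.956), BUB1B (0.953), ANLN (0.948), STAG1 (0.942) and SLC38A1 (0.938). ANLN and KIF23 encode proteins of the dividing cell's cleavage furrow and midzone, BUB1B a kinase of the spindle checkpoint, and WRN a DNA helicase. These roles cover only some of the nearest genes, leaving out ZEB1, PPIG, IPO7, STAG1 and SLC38A1. Whether the nearest genes share a role was not tested. As measured, the r of the 24 proliferation genes with TOP2A ran from -0.302 (MCM5) to 0.821 (CENPF), with a median of 0.169 and 8 of 24 below 0. BUB1B, a gene of that list, had 0.607 as measured against 0.953 after subtraction. Values as measured thus also carry differences between replicate numbers, and those of the list are given as measured only. The genes nearest to TOP2B were CENPE (0.956), RB1CC1 (0.948), BCLAF1 (0.946), DNAJC10 (0.945) and SMC4 (0.943), and after subtraction PSMD1 (0.965), MFN1 (0.953), KIF5B (0.943), BCLAF1 (0.942) and PLS3 (0.941). TOP2A and TOP2B had r = 0.782 with each other, or 0.892 after subtraction, and TOP2A and TOP1 had 0.613 and 0.735. TOP2B and TOP1 had 0.536 and 0.751, and TOP3A and TOP3B had 0.242 and 0.786. TOP1, TOP3A and TOP3B had no CCAAT match, and any link between the motif and these r was not tested. These values describe 18 libraries that share groups, replicate numbers and depth, and are given without a test.

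Among the type I enzymes, TOP1 (ENSG00000198900, chr20:41028818-41124487, plus strand) had 114, 142 and 144 CPM in etoposide 0 and 111, 116 and 150 CPM in DMSO 0. At 20 it had 115, 166 and 124 CPM with etoposide and 133, 114 and 137 CPM with DMSO, and at 40 it had 131, 140 and 147 CPM with etoposide and 105, 153 and 145 CPM with DMSO. The groups overlapped at each time point. Its log2 difference over the 3 time points was 0.07 (95% interval -0.14 to 0.28), the highest upper bound of the 9 genes. At 20 the difference was 0.08, and -0.103 without etoposide 20 replicate 2, the library in which TOP2A and TOP2B were also highest in the etoposide arm at 20.

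TOP1MT, the mitochondrial type IB enzyme on chromosome 8, ranged from 11.0 to 14.5 CPM over the 9 etoposide libraries and from 9.44 to 16.7 CPM over the 9 DMSO libraries. In the DMSO arm replicate 2 was the highest library at each time point, with 16.7, 16.4 and 15.7 CPM at 0, 20 and 40. Its log2 difference over the time points was 0.01 (-0.24 to 0.26). TOP3A, a type IA enzyme that works with BLM to dissolve crossed DNA strands (chr17:18271428-18315007, minus strand), ranged from 25.9 to 34.9 CPM with etoposide and from 23.5 to 37.2 CPM with DMSO, with a log2 difference of -0.01 (-0.22 to 0.20). TOP3B, which acts on RNA as well as DNA (chr22:21957025-21982816, minus strand), ranged from 17.2 to 23.1 CPM with etoposide and from 13.97 to 23.5 CPM with DMSO, with a difference of -0.02 (-0.27 to 0.23). The DMSO libraries of these 3 genes spread more widely than the etoposide libraries, a difference in spread that was not tested.

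The TOP3B counts are uncertain, because 90.7% of its exon bases are shared with the antisense gene AC245452.1, which had 976 counts in all against 3530 for TOP3B, and the strand setting of the counting is not given in the sources used here. Overlap with genes of the opposite strand was small for TOP1 (90 bp with PLCG1-AS1) and TOP2B (28 bp with RARB). The processed pseudogene TOP3BP1 had 2 counts over all libraries.

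TDP1 (ENSG00000042088, chr14:89954939-90044768, plus strand) had 34.9, 41.5 and 32.8 CPM in etoposide 0 and 33.9, 37.3 and 31.2 CPM in DMSO 0. At 20 it had 35.6, 39.2 and 28.0 CPM with etoposide and 35.9, 39.8 and 30.3 CPM with DMSO, and at 40 it had 37.4, 36.5 and 29.9 CPM with etoposide and 40.3, 39.1 and 30.3 CPM with DMSO. Replicate 3 was the lowest library in all 6 groups, and the arms overlapped. The log2 difference over the time points was -0.01 (-0.21 to 0.19), a mean of opposite signs. In the same-numbered pairs 1, 2 and 3, TDP1 differed by 0.04, 0.15 and 0.07 at 0, by -0.01, -0.02 and -0.11 at 20 and by -0.11, -0.10 and -0.02 at 40, so etoposide was higher in 3 of 3 pairs at 0 and lower in 3 of 3 at 20 and at 40. The interactions of TDP1 were -0.13 (-0.63 to 0.36) at 20 and -0.17 (-0.66 to 0.32) at 40 and were not called. One sign in all 3 pairs was found for 1 of the 9 genes at 0 (TDP1), against 34.5% of all genes, for 2 at 20 (TDP1 and SPRTN), against 15.9%, and for 3 at 40 (TOP2A, TDP1 and SPRTN), against the 25.6% given above. TDP2, the enzyme that acts on topoisomerase II adducts (ENSG00000111802, chr6:24649977-24667033, minus strand), had 45.7, 36.9 and 46.8 CPM in etoposide 0 and 41.0, 39.6 and 46.1 CPM in DMSO 0. It had 39.7, 42.8 and 40.0 CPM in etoposide 20 and 37.6, 40.1 and 42.3 CPM in DMSO 20, and 39.7, 47.3 and 41.9 CPM in etoposide 40 and 50.4, 38.6 and 42.5 CPM in DMSO 40. Its log2 difference of 0.01 had the narrowest interval of the 9 genes (-0.15 to 0.17), and no time point set its arms apart.

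SPRTN, the protease of the group (ENSG00000010072, chr1:231337104-231355023, plus strand), had the lowest level per kb and, at 40 against 0, the estimates farthest from 0 of the 9 genes in both arms, which were not called. With etoposide it had 11.3, 8.54 and 11.5 CPM at 0, 10.8, 11.3 and 10.3 CPM at 20, and 9.38, 8.77 and 8.86 CPM at 40. With DMSO it had 11.3, 9.95 and 11.2 CPM at 0, 10.6, 10.6 and 8.51 CPM at 20, and 7.66, 8.44 and 8.65 CPM at 40. In the DMSO arm the 3 libraries at 40 lay below the 3 libraries at 0, as for 4.42% of all genes. In the etoposide arm replicate 2 was low at 0 and the groups at 40 and 0 overlapped, whereas 4.84% of genes were lower at 40 without overlap.

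At 40 against 0 the log2 change of SPRTN was -0.21 (95% interval -0.54 to 0.12) with etoposide and -0.39 (-0.72 to -0.06) with DMSO. The change with DMSO had an unadjusted p of 0.0235 and missed the threshold over all genes (adjusted p = 0.852 in edgeR, or 0.479 with the replicate block). Its estimate stayed between -0.45 and -0.34 under all alternatives tried, with 0.479 the smallest adjusted p in edgeR. It was -0.45 without DMSO 0 replicate 2, the library with the high BEST1 count, and etoposide 20 replicate 2 together. Within replicates 1, 2 and 3 the change was -0.27, 0.04 and -0.36 with etoposide and -0.55, -0.23 and -0.37 with DMSO. Among the 14186 genes, 2383 had a more negative estimate than SPRTN with etoposide and 1299 with DMSO. The difference between these changes, the interaction, was 0.18 (-0.29 to 0.64) and was not called.

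Between the arms at 40, SPRTN averaged 9.01 ± 0.332 CPM with etoposide and 8.25 ± 0.519 CPM with DMSO (SD, n = 3 each), and the 3 libraries with etoposide lay above the 3 with DMSO. Groups without overlap in either direction made up 4.11% of genes at 40, 6.21% at 0 and 2.8% at 20, and SPRTN at 40 was the single case among the 9 genes at these time points. The log2 difference was 0.13 (-0.20 to 0.46), with an unadjusted edgeR p of 0.431, and etoposide was higher in 3 of 3 same-numbered pairs. SPRTN was counted from 80 to 135 reads per library, the fewest of the 9 genes. Of its exon bases, 12.7% overlap EXOC8 on the opposite strand, which had 2648 counts in all against 1798 for SPRTN, and reads of the shared bases cannot be told apart without strand.

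**Figure D3:**
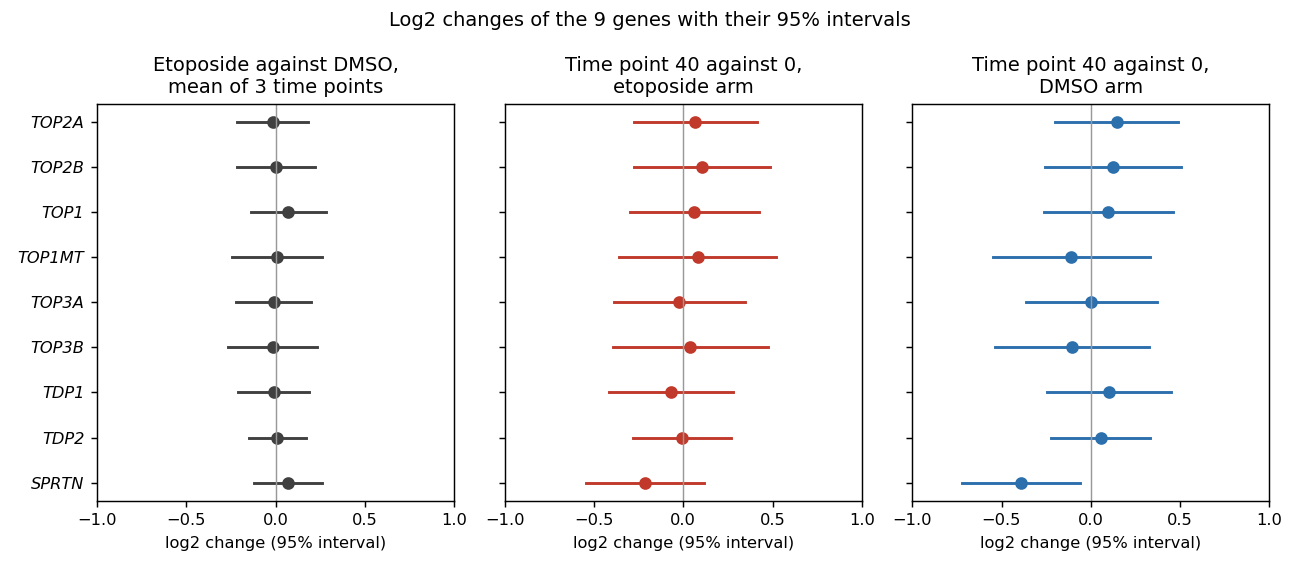
Log2 changes of the 9 genes (points) with 95% intervals (bars) for etoposide against DMSO as the mean of 3 time points, and for time point 40 against 0 in the etoposide arm and in the DMSO arm. All intervals include 0 except that of SPRTN at 40 against 0 with DMSO (-0.72 to -0.06).

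Read together as limits, the 95% intervals of the 9 differences between etoposide and DMSO over the 3 time points lay within 0.831-fold and 1.21-fold. This and the following ranges come from the fit without the replicate block. At single time points the intervals reached 0.669-fold to 1.37-fold at 0, 0.666-fold to 1.48-fold at 20 and 0.727-fold to 1.47-fold at 40. For 40 against 0 they reached 0.686-fold to 1.43-fold in the etoposide arm and 0.607-fold to 1.42-fold in the DMSO arm, and for 20 against 0 they reached 0.678-fold to 1.45-fold with etoposide and 0.659-fold to 1.36-fold with DMSO. These ranges hold the widest of 9 intervals, and single genes had narrower ones. A missed threshold does not show that levels were equal. The estimates of the 9 genes at 40 against 0 ran from -0.21 to 0.10 with etoposide and from -0.39 to 0.14 with DMSO, with medians of 0.04 and 0.05 (0.00 and 0.01 over all tested genes).

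In the same libraries 8 mRNAs known as short-lived (MYC, JUN, FOS, IER2, ID1, ZFP36L1, KLF6 and SGK1) had a median change of -1.37 with etoposide and -1.92 with DMSO at 40 against 0, and 6 of 8 were called lower in each arm (8 of 8 with the replicate block). Their changes ran from -2.18 to -0.95 with etoposide and from -2.59 to -1.36 with DMSO, all farther from 0 than that of any of the 9 genes. As a list chosen with results of these data known, they serve only to show the scale on which mRNAs fell by 40.

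**Figure D4:**
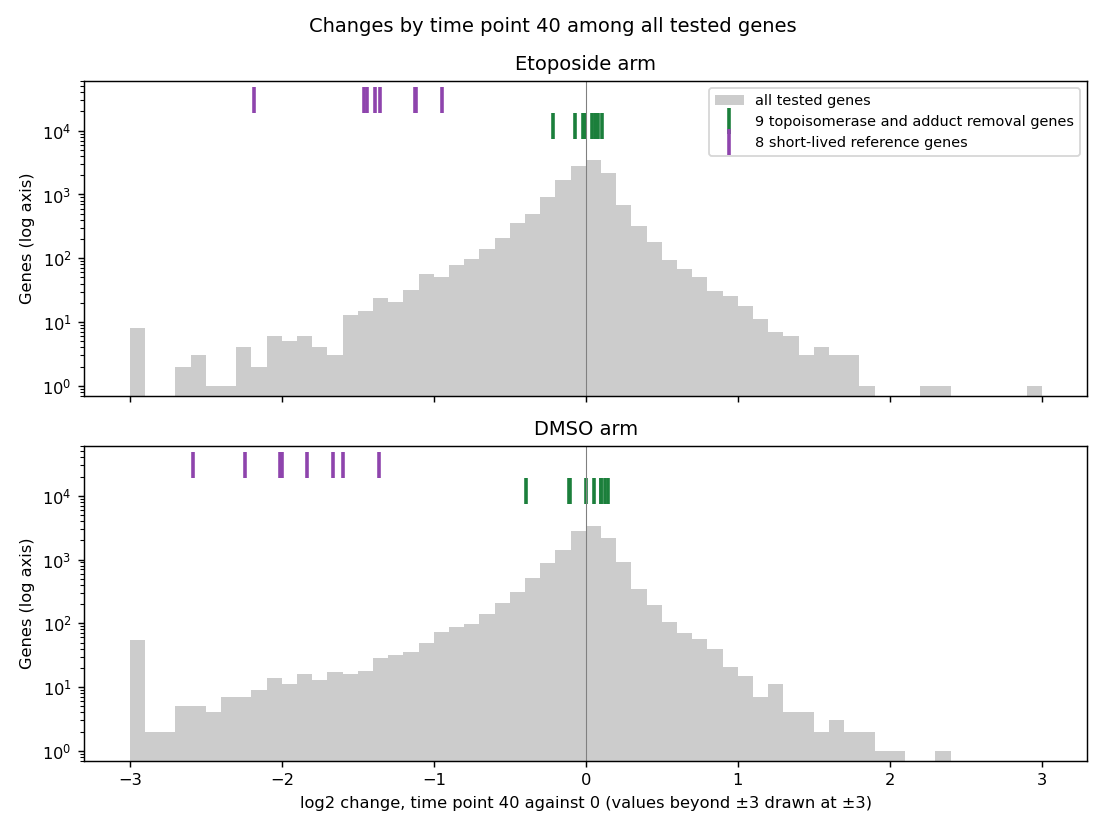
Distribution of log2 changes at time point 40 against 0 over all 14186 tested genes (grey, number of genes on a log axis), in the etoposide arm above and the DMSO arm below, with the 9 genes in green and 8 short-lived mRNAs in purple. The 9 genes lie between -0.21 and 0.10 with etoposide and between -0.39 and 0.14 with DMSO, and the short-lived mRNAs lie to their left.

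Replicate number set several of the genes apart, as it did many genes of the genome. In the fit with the replicate numbers as a block, 5 of the 9 genes were called for a difference among numbers 1, 2 and 3, against 53% of all tested genes, a comparison added after seeing the data. TDP1 averaged 36.3 ± 2.26, 38.9 ± 1.78 and 30.4 ± 1.56 CPM in the libraries of numbers 1, 2 and 3 (SD, n = 6 each; adjusted p = 0.00117 in edgeR). TOP2B averaged 152 ± 9.51, 140 ± 22.9 and 175 ± 15.8 CPM (adjusted p = 0.0131 in edgeR), so number 3 was high for TOP2B and low for TDP1.

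TOP1 was lowest in number 1, with 118 ± 11.3 CPM, against 139 ± 20.3 and 141 ± 9.35 CPM in numbers 2 and 3 (adjusted p = 0.0386 in edgeR). TOP1MT was highest in number 2 with 14.9 ± 1.56 CPM (adjusted p = 0.0236), and TOP3A in number 3 with 33.9 ± 2.84 CPM (adjusted p = 0.0492), both in edgeR. TOP2A (adjusted p = 0.740), TOP3B (0.262), TDP2 (0.696) and SPRTN (0.822) were not called. The count of 5 was 4 with library totals in place of TMM (52.6% of all genes called) and 3 without the filter on low counts (27.2% of 29095 genes called), so it stayed near the share over all genes. What the numbers stand for beyond independent replicates is not stated in the labels.

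**Figure D5:**
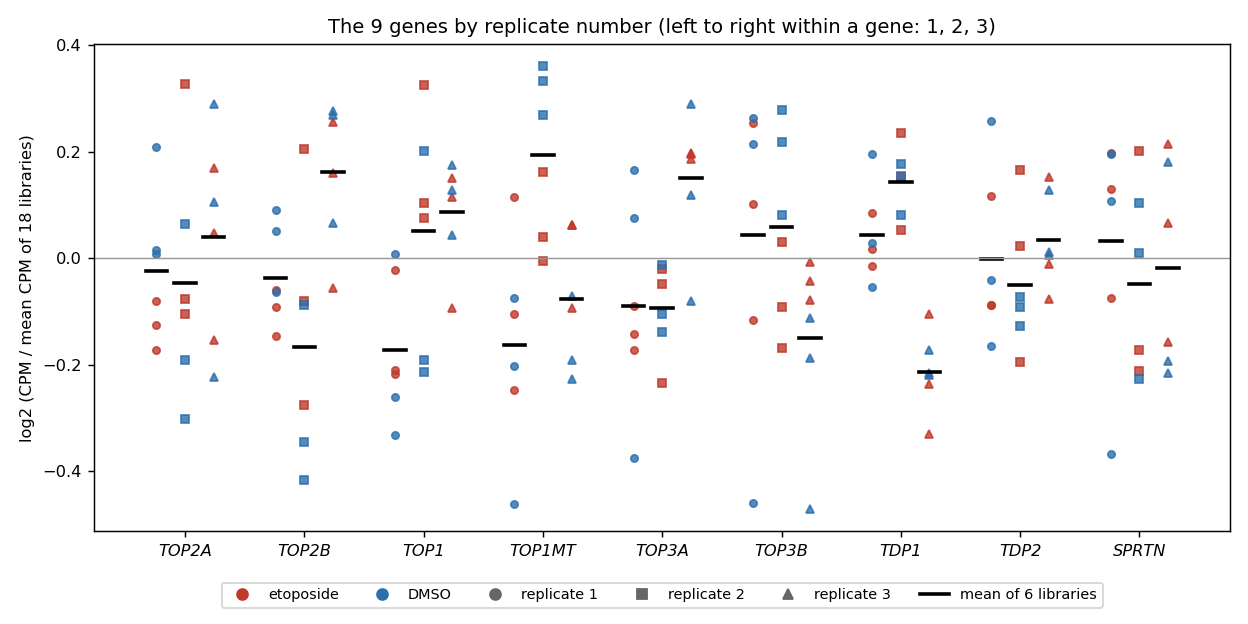
Log2 ratio of each library's CPM to the gene's mean over 18 libraries (vertical axis), for the 9 genes, with replicate numbers 1, 2 and 3 from left to right within a gene, etoposide in red and DMSO in blue, and bars for the mean of 6 libraries. For TDP1 the 6 libraries of number 3 lie below 0, and for TOP2B 5 of 6 lie above it.

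Partners and helpers of these enzymes were read from a list of 25 genes, of which DDI1 did not pass the filter and 24 were tested. None of the 24 was called in any comparison, with or without the replicate block. The list's median log2 difference between etoposide and DMSO over the 3 time points was -0.03, with 19 of 24 below 0, against -0.01 and 52.8% below 0 over all tested genes. At 40 against 0 its median was -0.01 in the etoposide arm and -0.01 in the DMSO arm. RMI2, a scaffold protein of the BLM and TOP3A complex, had the smallest p between the arms over the time points, with a log2 difference of -0.15 (not called). TDRD3, which binds TOP3B, had a difference of 0.21 at 0 (not called).

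TOPORS, a ligase that was found as a partner of TOP1, had the list's smallest p at 40 against 0 with etoposide, with a change of -0.33 (not called). GCNA, a germ-cell relative of SPRTN, had the list's largest change in the DMSO arm, -0.74, at 7 to 42 counts per library (not called). PARP1, which binds breaks and modifies trapped TOP1, had the smallest p for the interaction at 40, with 0.17 (not called).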

How the data were processed

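The deposited values are raw read counts per gene, without normalization, which the authors made with bcl2fastq, HISAT2 and featureCounts on GRCh38 (hg38), per the submitters' processing notes. Not given in the sources used here are tool versions, annotation release, strand setting and treatment of multi-mapped reads. RNA was purified on RNeasy columns and sequenced from TruSeq Stranded mRNA libraries, per the labels' protocols. Positions, symbols and exon lengths came from GENCODE 29.

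The test was edgeR's (4.0.16, R 4.3.3) robust quasi-likelihood F test on a single fit of the 6 groups. Scaling was by TMM (0.978 to 1.02), and after filterByExpr 14186 genes with 99.84% of counts remained. Adjustment was by Benjamini-Hochberg across these genes, and the same fit gave 95% intervals. At these depths 3 counts corresponded to 0.259 to 0.377 CPM, a floor that covers counting error only. The alternatives were other scaling factors, no filter, DESeq2 1.42.0, limma-voom 3.58.1, a replicate block, the compared groups alone and left-out libraries. The script was tested on simulated counts.

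Deviations from group means correlated between libraries of the same number (45 pairs, r from 0.359 to 0.911, above the minimum of 0.1), so the numbers from the labels pair the samples. The fit without the block is the main one because no source states a block. It leaves the variation shared by same-numbered libraries in the spread, so its intervals can be wider than with the block, as for TOP2B. Its p-values can likewise be larger. Between the arms the block called 1 gene at 40 and 4 over the time points, against 0 without it. At 40 against 0 the fit without the block called 29 genes with etoposide and 60 with DMSO, against 143 and 173 with the block.

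The 9 genes and all lists were chosen with earlier results of these data known. All 9 are named in every comparison, with, of each list, called genes and up to 4 with the smallest p, and the 5 genes nearest to TOP2A and to TOP2B.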

Additional observations from a re-analysis of the deposited data

How the results depend on the processing

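Each of 90 changes of the 9 genes (10 comparisons) was recomputed under up to 27 alternative settings, 2421 values in all, and 0 were called. The replicate block changed no call of the 9 genes and left 0 of 9 called in every comparison. In 216 of these values the sign changed, none larger in size than 0.202 on the log2 scale.

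In 5 changes the sign turned by more than 1 standard error. Over the left-out libraries, TOP2A between etoposide and DMSO at 20 ran from -0.0761 to 0.281 and TOP1 from -0.103 to 0.180. At 20 against 0 with etoposide TOP2A ran from -0.104 to 0.166 and TOP1 from -0.161 to 0.123. All 4 lowest values came without etoposide 20 replicate 2, and leaving out DMSO 0 replicate 2 as well gave -0.0757, -0.102, -0.104 and -0.161. TOP3A at 40 against 0 with DMSO ran from -0.170 without DMSO 40 replicate 3 to 0.158 without DMSO 40 replicate 1, and was -0.202 without all libraries of number 3. The cause was not tested. The difference in the TOP2A to TOP2B log2 ratio ran from -0.0717 to 0.00251, its sign turning without DMSO 20 replicate 1, with exact permutation p from 0.205 to 0.976.

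Counts over all genes moved more. At 40 against 0, the etoposide arm had 29 calls, 68 with DESeq2, 143 with the replicate block, 6 with the compared groups alone and 12 (without etoposide 40 replicate 1) to 33 over left-out libraries. The DMSO arm had 60, 108, 173, 12 and 27 (without DMSO 40 replicate 1) to 86, and 38 without DMSO 0 replicate 2 and etoposide 20 replicate 2. Any difference among groups was called for 47 genes, 135 with DESeq2, 185 with the block and 30 to 101 over left-out libraries. Etoposide against DMSO over the time points called 0 genes, 1 with DESeq2 and 4 with the block, and at 40 it called 0, 1 with DESeq2 and 1 with the block. SPRTN had the fewest counts of the 9 genes, 80 to 135 per library.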
